A study of Mus musculus with 16 samples.

Results

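Lysosomal hydrolases and membrane proteins were described as 42 named genes, out of 19938 genes measured on the arrays. The genes were chosen by what their products do and each was read from its brightest probe set with a single symbol: 10 lysosomal proteases, 12 glycosidases, 4 sulfatases, 7 lipid hydrolases, saposins and phosphatase, and 9 proteins of the lysosomal membrane. All 42 were measured, and all 42 had a mean intensity of at least 50 over the arrays, a level that 48.5% of all genes reached, so no gene of the list was lost to a filter on dim genes. That level lies near the array medians over the 19938 genes, 45.7 to 47.5, and does not show detection. Ctsl and Ctsd averaged 59.7 and 60.8, and the differences of such dim genes may be compressed.

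Lysosomes are acidic organelles in which enzymes cut proteins, sugar chains and lipids that reach the cell by uptake or autophagy. The enzymes are made in the endoplasmic reticulum, mostly carried to lysosomes by mannose 6-phosphate receptors, and activated at low pH, which the vacuolar ATPase sets. Transcription factors of the TFEB family bind E-box sequences of the CLEAR type near many lysosomal genes. In dendritic cells these enzymes both prepare peptides for MHC class II and destroy antigen. The cDC1 subset is known for milder acidification of its phagosomes and for cross-presentation, the display of peptides from engulfed cells on MHC class I.

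The data were 16 expression arrays of cDC1 sorted from inguinal lymph nodes of C57BL/6 mice, all of which had received a regressor tumour, one that the host later rejects, in the back flank 6 days earlier. KO mice had the Wdfy4 gene, whose BEACH domain protein cDC1 need for cross-presentation of material from dead cells, disrupted, and Het mice kept 1 intact copy. The 4 groups were KO draining, Het draining, KO non-draining and Het non-draining, named by genotype and by whether the node lay on the tumour's side, with 4 arrays each. No wild type and no tumour-free mouse was among the groups, so each comparison sets Wdfy4 loss against 1 copy, or 1 node of a tumour-bearing host against the other. Neither the removed stretch of Wdfy4 nor the age of the mice is labelled, and no label ties arrays to single mice. The p-values therefore measure the spread among arrays of a group alone, and this spread may be technical.

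The values are RMA intensities on a linear scale, background-corrected and quantile-scaled, with a median per array between 38.6 and 40.8 over all probe sets. No sequencing depth applies to arrays, so precision is set by how many there are. The probe set of Wdfy4, which may lie outside the removed stretch, averaged 2252 ± 411 in KO draining arrays and 2957 ± 433 in Het draining arrays. It averaged 2375 ± 557 in KO non-draining arrays and 2804 ± 549 in Het non-draining arrays (SD, n = 4 each). Its KO means were thus lower but the signal was not lost, and KO and Het arrays overlapped in both nodes. The cDC1 genes Xcr1, Clec9a and Batf3 were bright on every array, with lowest values of 1240, 1031 and 585. Of macrophage and monocyte genes, Adgre1 never passed 40.5 and Csf1r never passed 81.5, whereas C1qa reached 174, Cd14 reached 229 and Lyz2 reached 811. The T cell gene Cd3e lay between 94.4 and 279 and the B cell gene Ms4a1 between 21.1 and 60.4. In sorted cells measured in bulk, fewer cells of a type and less RNA per cell cannot be told apart.

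The promoters of lysosomal genes held the letters CACGTG, the core of the E-box in the CLEAR element, in 13 of the 39 genes matched in the RefSeq promoter table (GRCm38.p6), or 33.3%. Among 15614 measured genes with a promoter there, 9.5% held the same letters, as did 8.09% of all 27025 genes listed. A window ran from 250 bases before to 50 bases after an annotated start, and a gene counted when any of its windows held the motif, which reads the same on both strands. Counted over single windows, the shares were 30.2% of 43 windows of lysosomal genes and 8.24% of 19177 windows of measured genes. The longer motif TCACGTGA, every copy of which contains CACGTG, stood in 5 of the 39 genes (12.8%), against 1.52% of the measured genes. Ctsh, Ctsb and Asah1 had no entry in the table. The shares are a description of these windows and not a count of bound sites.

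The 13 genes with CACGTG were Ctsa, Ctsd, Ctsl, Lgmn, Gaa, Gla, Glb1, Naglu, Sgsh, Arsa, Lamp1, Mcoln1 and Cln3, with 21 copies between them, and 6 of the 13 had more than 1 copy. None of the 6 matched lipid hydrolase, saposin and phosphatase genes had one. The stretches printed here are the 150 bases before the start for 8 of these genes, on the coding strand from 5′ to 3′, with CACGTG in capitals. They were picked to show the promoter with the most copies (Lamp1, 4 copies), 4 of the 5 genes with the longer motif (Mcoln1, Ctsd, Ctsa, Cln3) and 3 genes whose array values are given in detail (Lgmn, Gaa, Naglu).
Lamp1: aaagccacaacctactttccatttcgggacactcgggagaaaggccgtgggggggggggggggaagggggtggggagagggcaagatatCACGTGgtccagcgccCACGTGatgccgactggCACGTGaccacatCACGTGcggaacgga
Mcoln1: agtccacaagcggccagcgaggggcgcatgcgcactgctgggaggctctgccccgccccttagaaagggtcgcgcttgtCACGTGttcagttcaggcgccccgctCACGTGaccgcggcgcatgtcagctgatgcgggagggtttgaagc
Ctsd: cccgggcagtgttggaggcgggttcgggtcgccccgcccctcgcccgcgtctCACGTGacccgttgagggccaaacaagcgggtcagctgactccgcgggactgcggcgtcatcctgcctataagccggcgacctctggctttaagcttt
Ctsa: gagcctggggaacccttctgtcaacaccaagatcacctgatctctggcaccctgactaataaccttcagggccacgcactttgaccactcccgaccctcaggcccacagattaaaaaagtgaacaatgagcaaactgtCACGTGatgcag
Cln3: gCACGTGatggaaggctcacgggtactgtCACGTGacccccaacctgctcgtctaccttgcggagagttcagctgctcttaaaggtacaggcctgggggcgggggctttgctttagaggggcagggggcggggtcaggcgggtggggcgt
Lgmn: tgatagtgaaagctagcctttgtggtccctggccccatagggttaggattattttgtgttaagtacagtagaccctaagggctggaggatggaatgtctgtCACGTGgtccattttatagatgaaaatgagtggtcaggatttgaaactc
Gaa: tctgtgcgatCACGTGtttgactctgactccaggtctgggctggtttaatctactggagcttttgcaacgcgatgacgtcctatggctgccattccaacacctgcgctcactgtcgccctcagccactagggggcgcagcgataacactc
Naglu: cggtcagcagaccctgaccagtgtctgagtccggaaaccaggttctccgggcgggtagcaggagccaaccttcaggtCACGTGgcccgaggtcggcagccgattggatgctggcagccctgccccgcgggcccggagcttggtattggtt
The stretches lie at chr8:13159011-13159160 (plus strand), chr8:3500369-3500518 (plus), chr7:142387828-142387977 (minus), chr2:164833623-164833772 (plus), chr7:126583237-126583386 (minus), chr12:102439093-102439242 (minus), chr11:119267813-119267962 (plus) and chr11:101069944-101070093 (plus) of GRCm38.p6. Ctsa, Cln3 and Lgmn each have 2 annotated starts in the table, and the stretch shown precedes the downstream one. In Lamp1 the first bases of the 4 copies stand at positions -61, -45, -28 and -15 relative to the start. In Mcoln1 they stand at -71 and -45, and in Cln3 at -149 and -121. In Ctsd the copy inside TCACGTGA stands at -98 with a further copy at -245, outside the stretch shown. In Ctsa the copy shown stands at -12, and another at 5 lies after the start. The single copies of Lgmn, Gaa and Naglu stand at -49, -140 and -73.

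Levels of different probe sets cannot be set against each other, so the ranges given next describe each gene across the 16 arrays.

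Among the proteases, Ctsa, the carboxypeptidase that also protects β-galactosidase and sialidase, lay between 152 and 246. Ctsb, a cysteine protease of the general proteolytic pool, lay between 897 and 1677. Ctsc, the dipeptidyl peptidase that activates granule proteases, lay between 382 and 692. Ctsd, the main aspartic protease, lay between 31.6 and 82.1. Ctsh, an aminopeptidase, lay between 1094 and 2117. Ctsl, an endopeptidase that cuts the invariant chain, the MHC class II chaperone, in thymic epithelium, lay between 45.1 and 84.3. Ctss, which does the same cut of the invariant chain in dendritic cells, lay between 1698 and 3451. Ctsz, a carboxypeptidase, lay between 770 and 1971. Lgmn, the asparaginyl endopeptidase that opens protein antigens and matures cathepsins, lay between 224 and 793, a 3.54-fold span that was the widest of all 42 genes. Tpp1, a tripeptidyl peptidase, lay between 60.4 and 99.6.

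Among the glycosidases, Gaa, which degrades glycogen, lay between 196 and 337. Gla, an α-galactosidase that clears globotriaosylceramide, lay between 54.8 and 166. Glb1, the β-galactosidase, lay between 95.5 and 171. Hexa, the α subunit of β-hexosaminidase, lay between 220 and 386. Gusb, the β-glucuronidase, lay between 1113 and 1677. Man2b1, the α-mannosidase of N-glycan breakdown, lay between 1092 and 1884. Manba, the β-mannosidase, lay between 52.4 and 136. Neu1, the sialidase, lay between 80.6 and 116. Naglu, which removes N-acetylglucosamine from heparan sulfate, lay between 50.6 and 123. Idua, the α-L-iduronidase of the same pathway, lay between 184 and 244. Fuca1, the α-fucosidase, lay between 1627 and 2505. Galc, which degrades galactosylceramide, lay between 59.7 and 137.

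Among the sulfatases, Sgsh, the heparan N-sulfatase, lay between 77.4 and 107. Ids, the iduronate sulfatase, lay between 308 and 525. Arsa, the sulfatase of sulfatide, lay between 63 and 114. Arsb, the sulfatase of dermatan sulfate, lay between 1685 and 3730, read from the brighter of its 2 probe sets. It was the 1 gene of the list with more than 1 probe set.

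Among the lipid hydrolases, saposins and phosphatase, Psap, the precursor of the saposins that lift lipids toward enzymes, lay between 4913 and 7080. Gm2a, the activator of ganglioside breakdown, lay between 1642 and 2717. Asah1, the acid ceramidase, lay between 536 and 926. Lipa, the acid lipase of cholesteryl esters and triglycerides, lay between 141 and 249. Smpd1, the acid sphingomyelinase, lay between 83.8 and 198. Ppt1, which removes palmitate from proteins, lay between 2993 and 5042. Acp2, the lysosomal acid phosphatase, lay between 94.1 and 314.

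Among the membrane proteins, Lamp1, a heavily glycosylated protein of the limiting membrane, lay between 446 and 1163. Lamp2, its relative that also acts in chaperone-mediated autophagy, lay between 457 and 672. Scarb2, the receptor that carries glucocerebrosidase to lysosomes, lay between 214 and 337. Cd63, a tetraspanin of late endosomes, lay between 3835 and 6887. Cd68, the macrosialin of macrophages and dendritic cells, lay between 199 and 373. Mcoln1, the lysosomal calcium channel, lay between 226 and 389. Cln3, the membrane protein mutated in juvenile Batten disease, lay between 346 and 568. Laptm5, a membrane protein of blood cell lysosomes, lay between 5623 and 7382, a 1.31-fold span that was the narrowest of the 42. Atp6ap1, an accessory subunit of the proton pump, lay between 355 and 622.

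The spread between arrays of a group was of the same size as the difference between groups. The pooled SD within groups had a median of 0.22 over the 42 genes on the log2(intensity + 1) scale, against 0.18 over all genes, and it ran between 0.11 for Laptm5 and 0.44 for Acp2. The gap between a gene's highest and lowest group mean had a median of 0.22 on the same scale. That gap was under 0.5 for 41 of the 42 genes. Arsa had the smallest gap, 0.04, and Lgmn the largest, 0.55. In some genes arrays 1 and 2 of a group stood apart from arrays 3 and 4. Arsb read 2757, 2690, 1685 and 1685 in Het non-draining arrays, and Ctsz read 1171, 1049, 1609 and 1650 in KO non-draining arrays. Arsb in KO draining arrays, at 2317, 2917, 2465 and 1945, showed no such split. The labels give the array numbers no meaning, and the part of this division in the spread was not tested. Fits within arrays 1 and 2 or within arrays 3 and 4, given below, follow it.

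The question of the genotype comparison was whether cDC1 without Wdfy4 carry another amount of lysosomal transcripts. In the draining node, 0 of 42 lysosomal genes passed an adjusted p of 0.05 in limma, as did 0% of all genes, and the smallest adjusted p among the 42 was 0.9997. The differences KO minus Het ran both ways, 22 above and 20 below 0 (50.9% of all genes below), with a median of 0.02 log2 units over the list and 0.00 over all genes. Without KO draining array 2 the median was 0.05 with 11 of 42 below 0, and without Het draining array 1 it was -0.02 with 24 below 0. In 0 of 42 were the KO and Het arrays free of overlap, against 1.58% of all genes. At an unadjusted p under 0.05 stood 1 of the 42, Lgmn, against 3.39% of all genes. The 95% interval of the difference lay within 2-fold either way for 41 of the 42 genes and within 1.5-fold for 34, the exception at 2-fold being Lgmn.

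In the non-draining node, 0 of 42 passed the adjusted test, with 0% of all genes, and 26 of the 42 stood above and 16 below 0 (48.1% of all genes below), with a median of 0.04. Gaa alone had an unadjusted p under 0.05, against 2.48% of all genes. All 42 intervals lay within 2-fold and 32 within 1.5-fold. Both nodes averaged, 0 of 42 passed (0% of all genes), the median was 0.02 with 19 of 42 below 0 (49.2% of all genes), and all 42 intervals lay within 2-fold and 39 within 1.5-fold. In that average Ctsc and Man2b1 stood higher and Lgmn and Gaa lower in KO cells at an unadjusted p under 0.05, 4 of 42 against 3.49% of all genes.

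**Figure D1:**
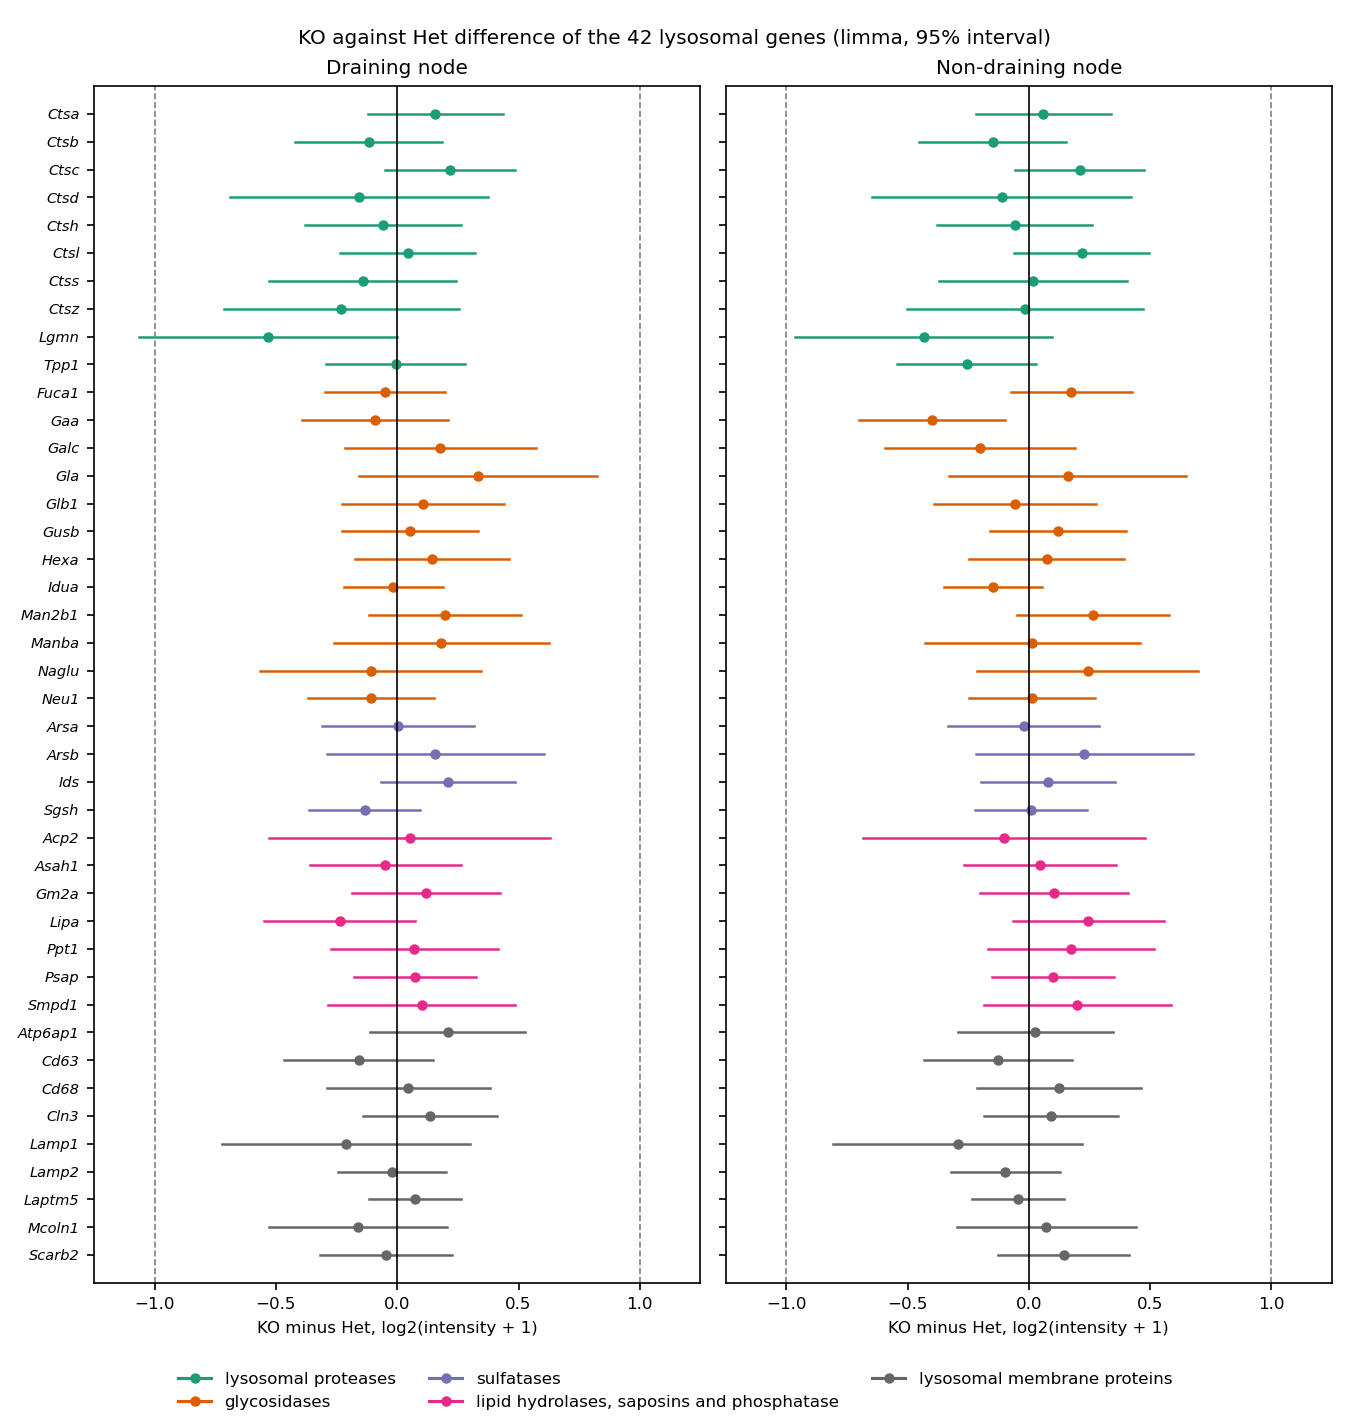
KO minus Het difference of each of the 42 lysosomal genes in log2(intensity + 1), in the draining node (left) and the non-draining node (right). Points are limma estimates from 4 arrays a group, lines are 95% intervals, colours mark the role of the gene and dashed lines mark 2-fold; the Lgmn interval alone passes the 2-fold line in the draining node, and none does in the non-draining node.

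Among the proteases, Lgmn showed the largest genotype difference. Lgmn read 687, 224, 447 and 556 in KO draining arrays, against 592, 498, 720 and 793 in Het draining arrays. The value of 224 on KO draining array 2 was the lowest of all 16, and the groups overlapped, since KO array 1 lay above 2 of the Het arrays. In the non-draining node Lgmn read 487, 422, 479 and 536 in KO arrays, against 725, 533, 624 and 729 in Het arrays, with KO array 4 just above Het array 2. The difference was -0.53 ± 0.25 in the draining node (exact permutation p = 0.2) and -0.43 ± 0.25 in the non-draining node (exact permutation p = 0.0571), here and below as limma estimate ± SE on the log2(intensity + 1) scale. Averaged over nodes it was -0.48 ± 0.18, with a limma adjusted p of 1.00. Without KO draining array 2, the draining difference was -0.21 and the average -0.32.

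Ctsc read 444, 465, 595 and 497 in KO draining arrays, against 420, 510, 408 and 382 in Het draining arrays. It read 529, 692, 545 and 558 in KO non-draining arrays, against 487, 599, 484 and 440 in Het non-draining arrays. KO means were above Het means in both nodes and the arrays overlapped in both. The differences were 0.22 ± 0.13 and 0.21 ± 0.13, each with exact permutation p = 0.171, and the average over nodes was 0.21 ± 0.09 (limma adjusted p = 1.00). Without KO array 3 the draining difference was 0.13, without KO array 2 the non-draining one was 0.12, and within arrays 1 and 2 alone the draining difference had the opposite sign, -0.03.

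Tpp1 read 60.4, 66.7, 80.2 and 79.7 in KO non-draining arrays, against 87.8, 83.4, 76.9 and 93.7 in Het non-draining arrays. The groups overlapped at 1 Het array, and the difference was -0.26 ± 0.14 (exact permutation p = 0.0857). In the draining node Tpp1 read 72.0, 63.7, 99.6 and 79.1 in KO arrays, against 86.0, 65.1, 77.7 and 84.8 in Het arrays, a difference of -0.01 ± 0.14. The other proteases lay closer to 0 or had wider intervals: over the 10 proteases, 3 stood higher and 7 lower in KO draining arrays with a median of -0.09, and the median deviation of the proteases from their own means was -0.58 on KO draining array 2. In the non-draining node 4 stood higher and 6 lower in KO arrays, with a median of -0.04. Ctss, the protease of the invariant chain, differed by -0.14 ± 0.18 with KO and Het draining arrays and by 0.02 ± 0.18 with non-draining ones.

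Among the glycosidases, Gaa was the 1 gene whose genotype groups did not overlap. Gaa read 196, 205, 255 and 254 in KO non-draining arrays, against 337, 270, 280 and 311 in Het non-draining arrays, so every KO array lay below every Het array. The difference was -0.40 ± 0.14, a fold of 0.76 with a 95% interval of 0.61 to 0.93. An exact permutation test gave p = 0.0286, which no split of 4 against 4 arrays can go below, and the limma adjusted p was 1.00. Any gene with groups free of overlap has that exact p, so it adds nothing to the lack of overlap. Of all genes, 1.19% had KO arrays entirely below Het arrays in this node, and 2.39% had groups free of overlap in either direction. In the draining node Gaa read 290, 206, 218 and 277 in KO arrays, against 212, 275, 318 and 250 in Het arrays, with full overlap and a difference of -0.09 ± 0.14. The change of the Gaa difference between nodes, 0.31 ± 0.20, did not pass the test either (limma adjusted p = 0.9997).

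Man2b1 read 1482, 1640, 1563 and 1313 in KO draining arrays, against 1211, 1653, 1302 and 1110 in Het draining arrays. It read 1675, 1884, 1398 and 1399 in KO non-draining arrays, against 1365, 1673, 1187 and 1092 in Het non-draining arrays. KO arrays tended to the upper end in both nodes and overlapped with Het arrays in both, with differences of 0.20 ± 0.15 and 0.26 ± 0.15 and an average of 0.23 ± 0.10 (limma adjusted p = 1.00). Without Het draining array 4 the draining difference was 0.12, and without Het draining array 2 it was 0.31. Gla had the highest genotype difference of the list in the draining node, 0.33 ± 0.23, with KO draining arrays between 99.5 and 128 and Het draining arrays between 54.8 and 117. The value of 54.8 was Het draining array 1, and without it the Gla difference was 0.10. Over the 12 glycosidases, 7 stood higher and 5 lower in KO draining arrays (median 0.08), and 8 higher and 4 lower in KO non-draining arrays (median 0.04).

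Among the sulfatases, Ids read 525, 444, 435 and 366 in KO draining arrays, against 308, 430, 401 and 390 in Het draining arrays. The highest value was KO array 1 and the lowest Het array 1, the other 6 arrays were mixed, and the difference was 0.21 ± 0.13 (exact permutation p = 0.229). Without Het draining array 1 it was 0.11, without KO draining array 1 it was 0.12, and within arrays 3 and 4 alone it was 0.01. In the non-draining node Ids read 457, 473, 398 and 370 in KO arrays, against 449, 435, 371 and 354 in Het arrays, a difference of 0.08 ± 0.13. Of the 4 sulfatases, 3 stood higher and 1 lower in KO cells of each node, with medians of 0.08 and 0.04 (draining, then non-draining).

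Among the lipid hydrolases, Lipa differed in opposite directions in the nodes. Lipa read 152, 143, 189 and 192 in KO draining arrays, against 188, 214, 197 and 193 in Het draining arrays. It read 227, 198, 189 and 238 in KO non-draining arrays, against 169, 249, 173 and 141 in Het non-draining arrays. KO arrays lay mostly below Het arrays in the draining node and above 3 of the 4 Het arrays in the non-draining node, with overlap in both. The differences were -0.24 ± 0.15 (exact permutation p = 0.0857) and 0.24 ± 0.15 (exact permutation p = 0.229). Without Het non-draining array 4 the non-draining difference was 0.13, and without Het non-draining array 2 it was 0.40. The interaction, the draining genotype difference minus the non-draining one, was -0.48 ± 0.21, with a limma adjusted p of 0.9997, and at an unadjusted p under 0.05 Lipa was 1 of 42 for that term, against 2.32% of all genes. Over the 7 genes of this role, 5 stood higher and 2 lower in KO draining arrays (median 0.07), and 6 higher and 1 lower in KO non-draining arrays (median 0.10). Psap, the saposin precursor, differed by 0.07 ± 0.12 and 0.10 ± 0.12.

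Among the membrane proteins, Lamp1 stood lowest relative to Het in both nodes, by -0.21 ± 0.24 on draining and -0.29 ± 0.24 on non-draining arrays. The KO draining arrays of Lamp1 read 1163, 446, 696 and 1002, against 750, 788, 1010 and 1090 in Het draining arrays, so the KO arrays held both its highest and its lowest value, and without KO draining array 2 the difference was 0.05. Mcoln1 read 317, 226, 334 and 338 in KO draining arrays, against 257, 366, 388 and 348 in Het draining arrays, a difference of -0.16 ± 0.17, or -0.03 without KO draining array 2. It read 282, 250, 389 and 352 in KO non-draining arrays, against 273, 245, 327 and 360 in Het non-draining arrays, a difference of 0.07 ± 0.17 with full overlap. Laptm5 had the tightest estimates of the list, 0.07 ± 0.09 and -0.04 ± 0.09. Over the 9 membrane proteins, 4 stood higher and 5 lower in KO draining arrays (median -0.02), and 5 higher and 4 lower in KO non-draining arrays (median 0.03).

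**Figure D2:**
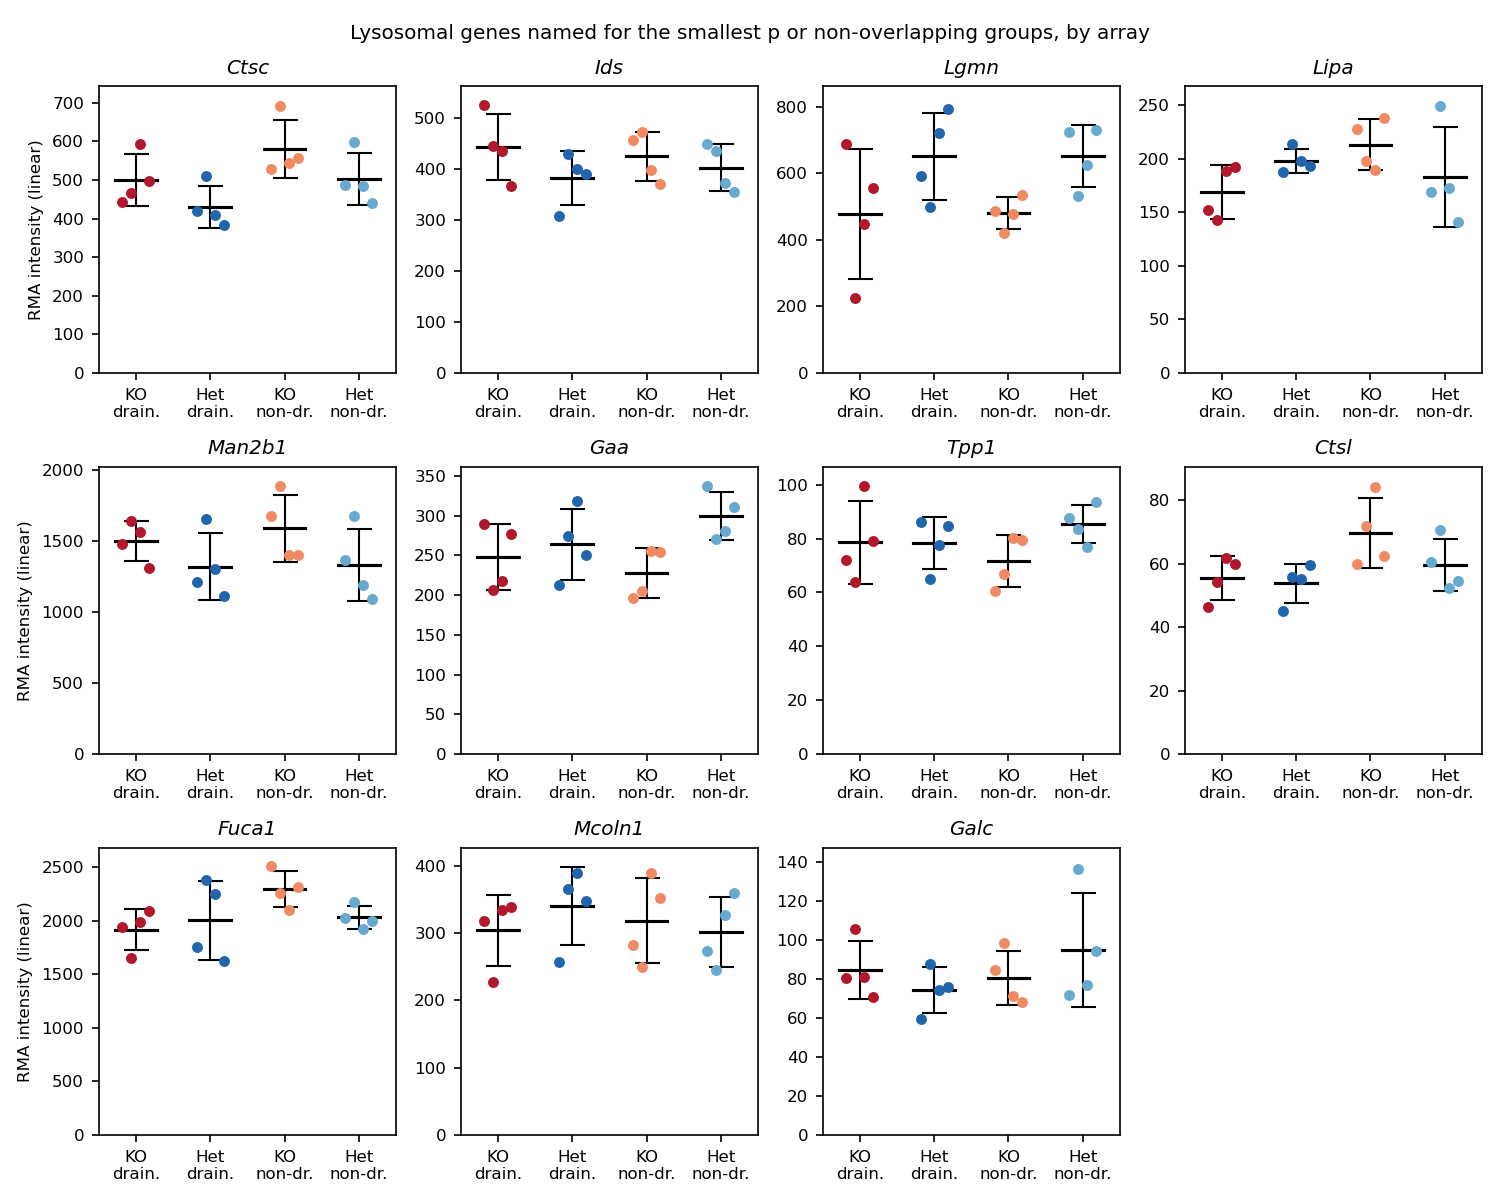
RMA intensity on a linear axis from 0 for the 11 lysosomal genes with the smallest unadjusted p in a direction of a comparison, or with groups that do not overlap. Points are the 4 arrays of a group in the order of their numbers, horizontal bars are means and whiskers are SDs; the Gaa arrays of KO non-draining nodes all lie below those of Het non-draining nodes, the Fuca1 arrays of KO draining nodes all lie below those of KO non-draining nodes, and Lgmn shows its single low value of 224 on KO draining array 2.

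Set side by side over the nodes, which share no arrays, 17 of the 42 genes stood higher in KO cells in both nodes, 11 lower in both and 14 in opposite directions. Over all genes these shares were 26.5%, 25.5% and 48%, against 40.5%, 26.2% and 33.3% of the 42. In the interaction 0 of 42 passed (0% of all genes), with 20 above and 22 below 0 (52.3% of all genes below) and a median of -0.01. Its intervals lay within 2-fold for 42 genes and within 1.5-fold for 23, with a median SE of 0.21 log2 units over the 42. These counts do not set the size of change that the adjusted test would detect with this number of arrays.

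Markers of other cell types were read beside these values. Of 10 T cell markers, all 10 stood higher in KO draining than in Het draining arrays (median 0.28) and all 10 lower in KO non-draining than in Het non-draining arrays (median -0.37). The summed intensity of the T cell markers lay between 1309 and 2807 in KO draining arrays and between 1147 and 2225 in Het draining arrays. It lay between 855 and 2449 in KO non-draining arrays and between 1309 and 2525 in Het non-draining arrays. Of 9 B cell markers, 8 stood higher in KO draining arrays (median 0.13) and 9 higher in KO non-draining arrays (median 0.46), and of 13 macrophage and monocyte markers 8 and 4 stood higher (medians 0.02 and -0.01). All 6 NK cell markers stood higher in KO cells in both nodes (medians 0.18 and 0.20). Of 6 migratory dendritic cell and Langerhans cell markers, 3 stood higher in KO draining arrays (median -0.02) and 1 in KO non-draining arrays (median -0.12). The median deviation of these 6 was 0.33, -0.56, 0.02 and 0.21 on KO draining arrays 1 to 4. The 14 cDC1 markers include the disrupted gene Wdfy4 itself, whose KO means were lower in both nodes. Of the 14, 6 stood higher in KO draining arrays (median -0.01) and 12 in KO non-draining arrays (median 0.21), the node in which 26 of 42 lysosomal genes stood higher. The part of these cell types in the lysosomal values was not tested.

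The node comparison asked whether cDC1 of the node on the tumour's side carry another amount of lysosomal transcripts than cDC1 of the other node. No single gene passed, and most of the list stood slightly lower in the draining node. In KO cells 0 of 42 passed the adjusted test (0% of all genes), and 33 of 42 stood lower and 9 higher, with a median of -0.08, a fold of 0.95. Of all genes 49.3% stood lower, and of the 9665 genes with a mean intensity of at least 50, the range in which all 42 lie, 58.2% did, against 78.6% of the 42. In Het cells 0 of 42 passed (0% of all genes), and 31 stood lower and 11 higher with a median of -0.04, or 73.8% lower, against 47.2% of all genes and 52.3% of the bright ones. Averaged over genotypes 0 of 42 passed (0% of all genes), 34 of 42 stood lower (81%), against 47.7% of all and 57.6% of bright genes, with a median of -0.06.

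The KO and the Het comparison share no arrays. In both of them 24 of the 42 genes stood lower in the draining node (57.1%), against 25% of all genes and 32% of the bright genes. The bright genes were not matched to the 42 in level beyond the cut at 50. The count rests in part on single arrays, since without Het draining array 1 only 20 of the 42 stood lower in Het cells. Higher in both stood 2 genes, Ctsb and Cln3 (4.76%, against 28.4% of all genes), named after their values were seen, and 16 had opposite directions (38.1%, against 46.6%). The sizes were small: Naglu in KO cells, named after its values were seen, differed most, by -0.43 ± 0.21, but by -0.20 without KO draining array 2. The intervals lay within 2-fold for all 42 genes in each genotype and within 1.5-fold for 34 in KO and 38 in Het cells. At an unadjusted p under 0.05 stood 3 of 42 in KO cells, Ctsl, Fuca1 and Lipa, all lower, against 2.11% of all genes in either direction and 0.973% lower. In Het cells 0 of 42 did in limma, against 3.29%, and in 0 of 42 were draining and non-draining arrays free of overlap, against 2.4% of all genes.

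**Figure D3:**
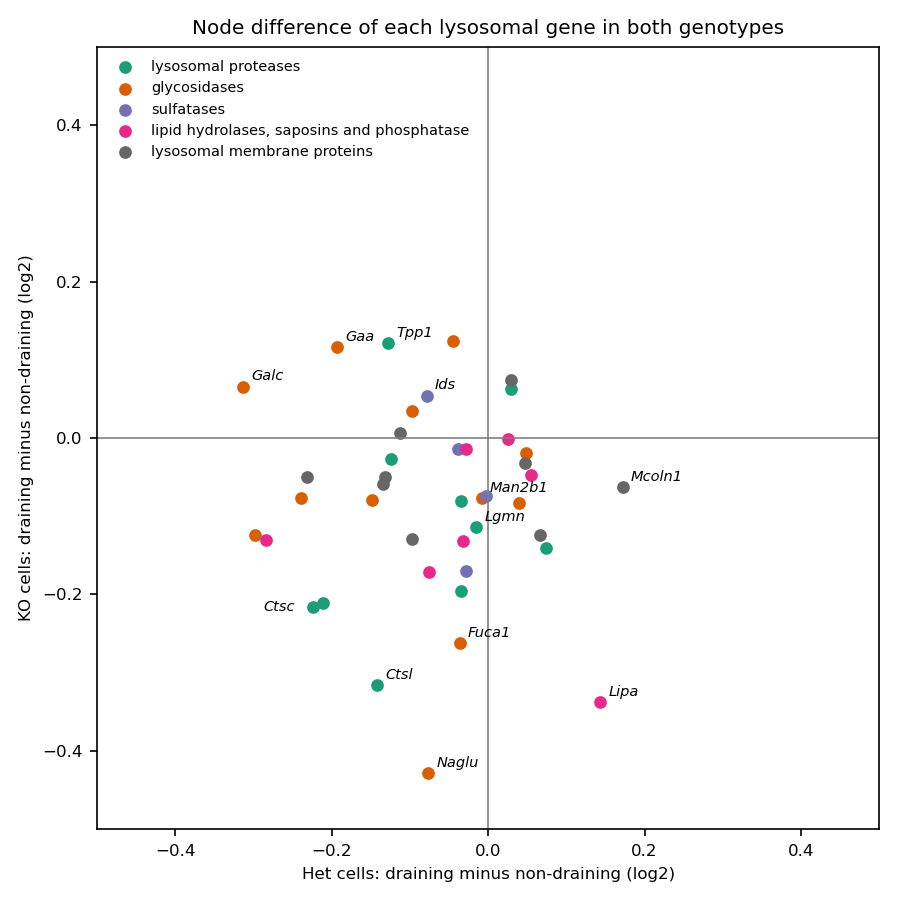
Draining minus non-draining difference of each of the 42 lysosomal genes in log2(intensity + 1), with Het cells on the horizontal and KO cells on the vertical axis and colours for the role of the gene. The 24 genes in the lower left stood lower in the draining node in both genotypes and 2 in the upper right stood higher in both; labels mark the genes given by array in the text.

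Of the draining arrays, 3 had a low median over the list. The median deviation of the 42 genes from their own means over 16 arrays was 0.07, -0.15, 0.02 and 0.01 in KO draining arrays, against 0.03, 0.05, 0.01 and 0.06 in KO non-draining arrays. It was -0.20, 0.06, 0.09 and -0.14 in Het draining arrays, against 0.03, 0.09, -0.04 and 0.03 in Het non-draining arrays. KO draining array 2 and Het draining arrays 1 and 4 were thus low and the other 5 draining arrays were not. On 2 of the 3 low arrays the bright genes as a whole were low too, with medians of -0.14 on KO draining array 2 and -0.07 on Het draining array 1, and on Het draining array 4 the median was -0.01. The intensity at the 75th percentile was 126 on KO draining array 2 and 134 on Het draining array 1, the lowest of the 16 arrays, and 141 on Het draining array 4, with the other 13 arrays between 139 and 153. The part of these array-wide differences in the node difference was not tested. Without Het draining array 1 the Het median was 0.01 with 20 of 42 lower, and without KO draining array 2 the KO median was -0.04 with 25 of 42 lower. Within arrays 1 and 2 alone the Het median was -0.13 with 33 of 42 lower, and within arrays 3 and 4 alone it was 0.01 with 20 of 42 lower.

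**Figure D4:**
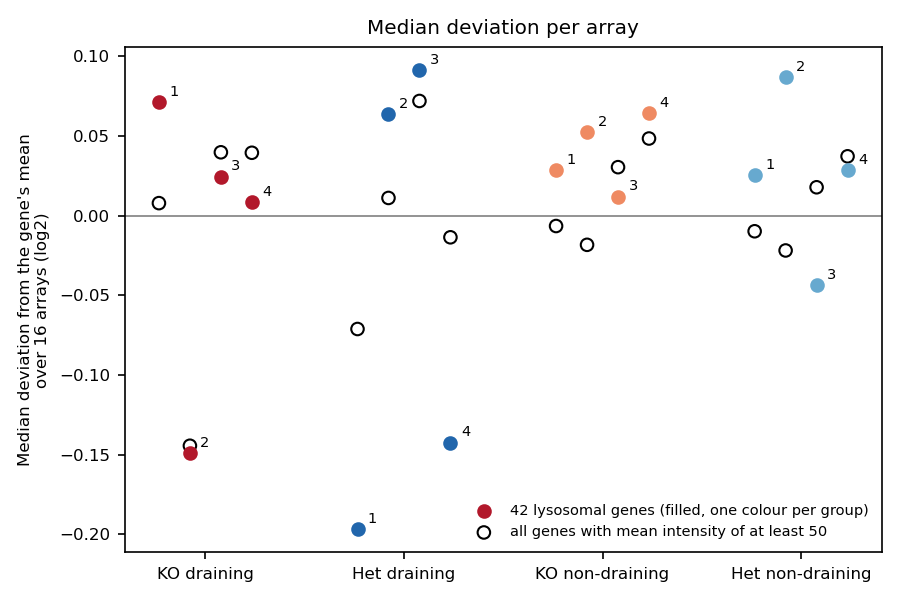
Median over genes of the log2 deviation from each gene's mean over all 16 arrays, by array, for the 42 lysosomal genes (filled points, coloured by group, with the array number) and for the 9665 genes with a mean intensity of at least 50 (open circles). The filled points of KO draining array 2 and Het draining arrays 1 and 4 lie at -0.15, -0.20 and -0.14, below all others, and the open circle of KO draining array 2 lies beside its filled point.

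By role, the proteases stood lower in the draining node for 8 of 10 genes in KO cells (median -0.13) and 8 of 10 in Het cells (median -0.08). Ctsl read 46.3, 54.2, 61.8 and 60.0 in KO draining arrays, against 59.9, 71.9, 84.3 and 62.5 in KO non-draining arrays. Of the KO draining arrays 2 lay within the non-draining range and 2 below it, and the difference was -0.32 ± 0.13 (exact permutation p = 0.0857). In Het cells Ctsl read 45.1, 55.8, 55.1 and 59.5 in draining arrays, against 60.6, 70.8, 52.3 and 54.7 in non-draining arrays, a difference of -0.14 ± 0.13 with overlap. Averaged over genotypes it was -0.23 ± 0.09 (limma adjusted p = 0.998).

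Ctsc, whose array values are given above, differed by -0.22 ± 0.13 between nodes in KO cells and by the same amount in Het cells. The draining and non-draining arrays overlapped in each genotype, and the average of -0.22 ± 0.09 had a limma adjusted p of 0.998. In Het cells, where same-numbered draining and non-draining arrays deviated together, Ctsc was lower in the draining array in 4 of 4 pairs. Ctsh, Galc and Lamp1 were too, which made 4 of 42 genes lower in all 4 pairs, against 1224 of all 19938 genes (6.14%). Higher in all 4 pairs stood 0 of 42, against 1492 of all 19938 genes. With these pairs as a block in a fit of the Het arrays alone, 0 of 42 passed, and the smallest limma adjusted p was 0.775. Ctsc and Ctsl were the 2 genes of the 42 with an unadjusted p under 0.05 in the averaged node comparison, against 3.06% of all genes. Tpp1 differed by 0.12 ± 0.14 in KO cells and -0.13 ± 0.14 in Het cells, and Lgmn by -0.11 ± 0.25 and -0.02 ± 0.25.

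The glycosidases stood lower in the draining node for 8 of 12 genes in KO cells (median -0.08) and 10 of 12 in Het cells (median -0.09). Fuca1 read 1941, 1647, 1985 and 2091 in KO draining arrays, against 2505, 2255, 2103 and 2314 in KO non-draining arrays. It was the 1 gene of the list whose node groups did not overlap, by a gap of 2091 against 2103. Of all genes, 0.592% lay entirely lower in this comparison, and 1.44% had groups free of overlap in either direction. Its estimate was -0.26 ± 0.12 with a limma adjusted p of 1.00. The exact permutation p of 0.0286 follows from the lack of overlap, by which Fuca1 was picked, and so adds nothing to it. In Het cells Fuca1 read 1756, 2382, 2245 and 1627 in draining arrays, against 2023, 2173, 1921 and 2001 in non-draining arrays, where the draining arrays held the 2 highest and the 2 lowest values and the difference was -0.04 ± 0.12.

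Galc read 59.7, 88.1, 74.4 and 76.1 in Het draining arrays, against 72.2, 137, 77.1 and 94.4 in Het non-draining arrays, a difference of -0.31 ± 0.19 with overlap (exact permutation p = 0.229). Without Het non-draining array 2 it was -0.13. In KO cells Galc read 80.5, 106, 81.4 and 70.8 in draining arrays, against 84.8, 98.4, 71.7 and 68.2 in non-draining arrays, a difference of 0.07 ± 0.19. The non-draining value of 137 on Het array 2 was the highest of the 16. Naglu read 114, 50.6, 90.4 and 86.8 in KO draining arrays, against 113, 108, 101 and 122 in KO non-draining arrays, with KO draining array 2 lowest and array 1 inside the non-draining range (exact permutation p = 0.114). Gaa differed by 0.12 ± 0.14 in KO cells and -0.19 ± 0.14 in Het cells, and within arrays 3 and 4 alone the KO value was -0.05.

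Of the 4 sulfatases 3 stood lower in the draining node in KO cells (median -0.04) and all 4 in Het cells (median -0.03), all with differences smaller than 0.2. The 7 lipid hydrolases, saposins and phosphatase all stood lower in KO cells (median -0.13), and 4 of 7 did in Het cells (median -0.03). Lipa, given by array above, differed by -0.34 ± 0.15 in KO cells (exact permutation p = 0.0571) and by 0.14 ± 0.15 in Het cells, and within arrays 1 and 2 alone the Het value was -0.04. Acp2, the acid phosphatase, had the least precise estimates, -0.13 ± 0.27 and -0.28 ± 0.27, and without Het draining array 1 its Het value was 0.08.

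Of the 9 membrane proteins 7 stood lower in KO cells (median -0.05) and 5 in Het cells (median -0.10). Mcoln1, given by array above, differed by -0.06 ± 0.17 in KO cells and 0.17 ± 0.17 in Het cells, the highest node difference of the list in Het cells, which was 0.08 without Het non-draining array 2 and 0.30 without Het draining array 1. Lamp1 differed by -0.05 ± 0.24 and -0.13 ± 0.24, Cd63 by -0.13 ± 0.14 and -0.10 ± 0.14, and Laptm5 by 0.01 ± 0.09 and -0.11 ± 0.09.

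Macrophage and monocyte markers, cells rich in lysosomes, were read beside the node comparison. Of the 13 measured, 7 stood lower in the draining node in KO cells (median -0.01) and 9 in Het cells (median -0.03). Their summed intensity lay between 1262 and 2087 in KO draining arrays and between 1690 and 1908 in KO non-draining arrays, and between 1430 and 1701 in Het draining arrays and between 1648 and 2144 in Het non-draining arrays. Averaged over genotypes, 7 of the 13 stood higher and 6 lower (median 0.01). Adgre1, Csf1r and C1qa averaged 33.9, 70.3 and 112 in KO draining arrays, against 33.1, 62.3 and 108 in KO non-draining arrays. In Het draining arrays they averaged 33.2, 65.8 and 120, against 32.4, 71.5 and 134 in Het non-draining arrays. Cd14, named after its values were seen, differed by -0.48 ± 0.20 in KO and -0.57 ± 0.20 in Het cells. Lyz2, named likewise, differed by -0.20 ± 0.20 and -0.53 ± 0.20, none past the adjusted test. On the 16 arrays Cd14 lay between 107 and 229, Lyz2 between 354 and 811 and Adgre1 between 27.6 and 40.5. Of 10 T cell markers, 9 stood higher in KO draining than in KO non-draining arrays (median 0.25) and 10 lower in Het draining than in Het non-draining arrays (median -0.44). All 9 B cell markers stood lower in KO draining arrays (median -0.20) and 4 of 9 in Het draining arrays (median 0.01). Of 7 cDC2 markers 5 stood lower in KO draining arrays (median -0.03) and 6 in Het draining arrays (median -0.21). Of 14 cDC1 markers 12 stood lower in KO draining arrays (median -0.05) and 3 in Het draining arrays (median 0.10), and of 7 neutrophil markers 3 and 6 stood lower (medians 0.01 and -0.12). Among 6 migratory dendritic cell and Langerhans cell markers, 3 stood lower in KO draining arrays (median 0.01) and 4 in Het draining arrays (median -0.06). The part of these cell types in the node difference was not tested.

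The genes with CACGTG in a promoter window are set here beside the 26 matched genes without it. In the draining node 6 of the 13 with the motif stood higher in KO cells (median -0.09) and 16 of the 26 matched genes without it did (median 0.06). In the non-draining node these counts were 7 of 13 (median 0.01) and 18 of 26 (median 0.08). Between nodes, 11 of 13 with the motif and 20 of 26 without it stood lower in the draining node in KO cells (medians -0.08 and -0.07), and 11 of 13 and 18 of 26 in Het cells (medians -0.08 and -0.04). No test was made of these counts.

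The other genes of the lysosomal pathway were read from 5 further lists, of which 60 of 65 genes were measured, and 0 of the 60 passed the adjusted test in any of the 7 comparisons, with 0% of all genes passing. At an unadjusted p under 0.05 in limma stood 2 of the 60 in the draining genotype comparison, Atp6v1a and Atp6v1h, 0 in the other simple comparisons and in the interaction, and 2 in each comparison of means. The 2 of 60 lie near the shares of all genes in those comparisons, 3.39%, 3.49% and 3.06%. Among 14 subunits of the vacuolar ATPase, the proton pump, 10 stood lower in KO draining than in Het draining arrays, with a median of -0.14, against 50.9% of all genes and a median of 0.00. The median deviation of the subunits was -0.14, -0.41, 0.02 and 0.14 on the KO draining arrays, and without array 2 of these the difference had a median of -0.02 with 8 of 14 lower. Atp6v1a, its catalytic subunit, differed by -0.31 ± 0.12 and Atp6v1h, a regulatory subunit of the pump's cytosolic part, by -0.37 ± 0.16 (limma adjusted p = 0.9997 for both). In the non-draining node 7 of the 14 stood lower (median 0.00), and Atp6v1a differed by -0.21 ± 0.12 and Atp6v1h by 0.01 ± 0.16. Between nodes 11 of 14 subunits stood lower in the draining node in KO cells (median -0.15) and 6 of 14 in Het cells (median 0.02). Without KO draining array 2 the KO count was 8 of 14 and the median -0.03.

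Of 14 genes that sort enzymes to lysosomes, 9 stood lower in KO draining arrays (median -0.03) and 8 in KO non-draining arrays (median -0.01). Sort1, the sorting receptor sortilin, differed by -0.23 ± 0.16 and -0.16 ± 0.16, and Vps33a, a subunit of the tethering complex that fuses endosomes with lysosomes, by 0.26 ± 0.13 in the draining node. Of 16 genes of the TFEB family and the lysosomal anchor of mTORC1, 6 stood lower in KO draining arrays (median 0.00) and 9 in KO non-draining arrays (median -0.03). Tfeb, the transcription factor that gives the family its name, differed by 0.20 ± 0.14 and -0.09 ± 0.14 between genotypes, and by 0.01 ± 0.14 in KO cells and -0.29 ± 0.14 in Het cells between nodes. Tfe3, its relative, differed by 0.13 ± 0.12 and -0.05 ± 0.12 between genotypes and by 0.00 ± 0.12 and -0.18 ± 0.12 between nodes.

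Of 10 further lumen enzymes and cofactors 5 stood lower in KO cells in each node (medians -0.01 and 0.00), and Ctsk, a collagen-cutting cathepsin, differed by 0.18 ± 0.08 between nodes averaged over genotypes (limma adjusted p = 0.998). Of 6 cathepsin inhibitors 4 stood lower in KO cells in each node (medians -0.11 and -0.12), and Serpinb6a, an intracellular serpin, differed by -0.21 ± 0.09 averaged over nodes (limma adjusted p = 1.00). Cst3, the secreted inhibitor cystatin C and a dendritic cell marker, differed by -0.08 ± 0.07 in the draining node.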

How the data were processed

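Total RNA of sorted cDC1 was measured on Affymetrix Mouse Gene 1.0 ST arrays, each with a single sample. The authors deposited linear intensity for 35556 probe sets, made with RMA according to the submitters' processing notes, its version not given in the sources used here. Since RMA scales all arrays alike, a shift shared by most genes would be lost, and differences of dim genes are compressed.

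GEO's platform annotation gave 21789 probe sets a single symbol, 1621 more than one and left 12146 unnamed. A gene was read from its brightest probe set with 1 symbol, which gave 19938 genes. The log2(intensity + 1) values went into limma 3.58.1 (R 4.3.3, two-sided tests) as 1 fit of 4 groups without a block, with 12 residual degrees of freedom, a prior of 4.35 and Benjamini-Hochberg adjustment over all genes. A gene was called at an adjusted p under 0.05. Errors after ± are SEs for differences and SDs for means. Exact two-sided permutation tests over 70 splits of 4 against 4 arrays are unadjusted. Arrays with 19938 genes were simulated with independent noise for each gene. The KO against Het fit in the draining node called 52% of 100 genes changed by 0.5 log2 units and 84% of 100 changed by 1, with 6 false calls. Shifts shared by a whole array were not simulated. The median SD within groups was 0.22 for the 42 genes and 0.18 for all genes, so these rates do not give what could be detected among the 42. Motifs were searched in RefSeq promoter windows with Python 3.11.15, and plots used matplotlib 3.10.9.

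The 42 genes and the pathway and marker lists were chosen with earlier results of these data known, so counts and medians over them carry no test. Genes given by array were, in each of 4 simple comparisons, the 2 of smallest unadjusted p in each direction and any whose groups do not overlap; other genes were named by smallest p in their list, as named factors or markers, or after their values were seen (Ctss, Gla, Naglu, Psap, Acp2, Lamp1, Laptm5, Cd63, Cd14, Lyz2). Same-numbered draining and non-draining Het arrays had correlated deviations in all 4 pairs (r of 0.20 to 0.31) and were also tested as pairs, an alternative added after the data were seen; in no other pair of groups compared did all 4 pairs pass 0.1. Within 29 alternative settings the pseudocount, filter, probe set rule, arrays in the fit, variance model, scaling, blocks and single arrays were varied.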

Additional observations from a re-analysis of the deposited data

Results flagged for a closer look

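Within groups of 4 arrays, 168 sets of values (42 genes in 4 groups) were searched for a single array that stood apart from the other 3, and 4 were found. Chance gives about 1 in 20 such groups, so 4 is not more than chance gives. Mcoln1 on KO draining array 2 was low at 226, against 317 to 338 on the other KO draining arrays, and the median deviation of the 42 genes on that array was -0.15. Smpd1 on KO non-draining array 4 was high at 198, with the other KO non-draining arrays between 102 and 113. Manba on Het draining array 4 was low at 58.3, with the others between 85.9 and 90.8, and that array had a median deviation of -0.14. Acp2 on Het non-draining array 1 was low at 178, with the others between 268 and 284.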

How the results depend on the processing

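The number of lysosomal genes past the adjusted test was 0 of 42 in the 7 comparisons under all 29 alternative settings in which each could be fitted. For Lgmn averaged over nodes, the lowest limma adjusted p was 0.184 over the 11 settings other than leaving out 1 array. With the replicate block, the array number as a fixed term, that difference was -0.48 with a limma adjusted p of 0.573. The array numbers are the same in every group, so this block cannot change a difference or a median, only the SE. The draining minus non-draining medians of -0.08 in KO and -0.04 in Het cells are therefore those of the main fit. No call changed. Same-numbered arrays of different groups had correlations of their deviations between -0.06 and 0.48 over 24 pairs, 18 of them above 0.1, but among the groups compared all 4 pairs passed 0.1 in the Het node comparison alone. With the replicate block in fits of only the arrays compared, which was added after the data were seen, 0 of 42 passed in each simple comparison. Within arrays 1 and 2 alone the Het node median was -0.134 with 33 of 42 lower, and within arrays 3 and 4 alone it turned to 0.0144 with 20 lower. Within arrays 1 and 2 the signs of 2 single values turned, Ctsc in KO against Het draining nodes to -0.0253 and Lipa between nodes in Het cells to -0.0354. Within arrays 3 and 4 alone Gaa between nodes in KO cells turned to -0.0521. The cause of these turns was not tested.

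Leaving out 1 array at a time, the median over the 42 genes ran from -0.02 to 0.05 for KO against Het in draining nodes, from 0.01 to 0.06 in non-draining nodes and from 0.00 to 0.07 averaged over nodes. It ran from -0.10 to -0.04 for draining against non-draining in KO cells, from -0.11 to 0.01 in Het cells, from -0.10 to -0.04 averaged over genotypes and from -0.07 to 0.07 for the interaction. With 4 arrays a group, the median SE of a genotype or node difference over the 42 genes was 0.15 log2 units.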
